A study of Mus musculus with 6 samples.

Results

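The interferon and antiviral response genes described here are a list of 47 mouse genes, 4 receptor subunits, 8 transcription factors, 4 sensors of viral nucleic acid, 17 antiviral effectors, 7 genes of the ISG15, ubiquitin and ADP-ribosyl enzymes, 3 interferon-induced GTPases and 4 genes of antigen presentation. Members were taken by symbol from the deposited expression tables, with no measured value in the rule. All 47 stood among the 13278 named genes, and counts could be recovered for all of them, as for 12182 genes in total. They cover 497 blood stem and progenitor cells of C57BL/6 mice, sorted singly and sequenced in 6 libraries by a modified Smart-seq2 method, which copies and amplifies the RNA of 1 cell in 1 well and here enriched 3' ends. The labels name no treatment with interferon or a virus.

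Each library mixed several sorted gates, and the populations carried the names HSC (haematopoietic stem cell), HPC (haematopoietic progenitor cell) and MPP (multipotent progenitor). The HSC2/MPP4 library contained MPP4 and the CD48+ part of HSC2 (89 cells). HSC2 of the gates CD48-CD201+ and CD48-CD201- made up the CD48-negative HSC2 library (86 cells); both were labelled total RNA, bone marrow and mice of 8 weeks. In the MPP2-containing library MPP2 cells stood beside CD48+ HSC1, CD48+ HPC1 and CD201-CD48- HPC1 (80 cells). The HPC1 library combined CD48+ and CD201+CD48- HPC1 (82 cells), and the HSC1 library the matching gates of HSC1 (84 cells). The double-negative library combined HPC1 and HSC1 that lacked CD201 and CD48 (76 cells). These 4 were labelled polyA RNA and mice of 8 to 10 weeks, with bone marrow as the tissue of the MPP2-containing and double-negative libraries and spleen as that of HPC1 and HSC1, whereas the title of the series gives bone marrow alone. A cell could be traced to its library and not to its gate. With 1 library per group there was no test, and gate, tissue, age, RNA and library cannot be told apart.

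Interferons are secreted proteins that cells release on sensing a virus. Type I interferons bind the receptor built from Ifnar1 and Ifnar2 and type II interferon that built from Ifngr1 and Ifngr2; kinases on the receptors then activate STAT proteins, which, with Irf9, bind an interferon-stimulated response element (ISRE) or, as STAT dimers, a gamma-activated site (GAS) in front of the induced genes. Blood stem cells are known to keep part of this programme on without infection, and interferon is known to drive resting stem cells into division.

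Of the 47 members 39 were in the RefSeq promoter table (GRCm38.p6), which gives 250 bases before to 50 after a transcription start. Either strand was searched for the ISRE core (GAAA, 2 bases of any kind and GAAA again) and the GAS core (TTC, 3 bases of any kind and GAA). At least 1 ISRE core was found for 18 of the 39 members (46.2%), against 365 of 9520 recovered genes in that table (3.83%) and 3.99% of all 27025 genes in it. A GAS core was found for 16 of 39 members (41%), against 801 of 9520 recovered genes (8.41%) and 9.55% of all genes in the table. The ISRE core was in the promoters of 3 of 3 GTPases, 8 of 16 effectors and 2 of 2 sensors in the table, and of 0 of 4 receptors, whereas 2 of the 4 receptors, Ifnar1 and Ifnar2, had a GAS core. A match describes letters and is not a binding site.

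**Figure D1:**
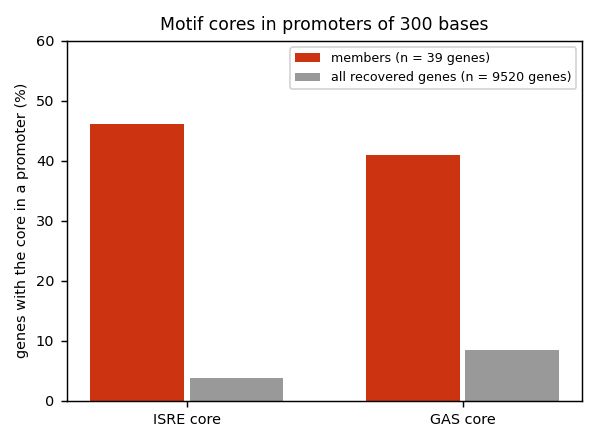
Share of genes whose promoter window of 300 bases holds the ISRE core or the GAS core, in percent, for the members in the promoter table (red, 39 genes) and for all recovered genes in it (grey, 9520 genes). The bars of the members stand at 46.2% and 41%, those of all recovered genes at 3.83% and 8.41%.

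The promoters of 5 members to which the results below return are printed from the strand of the gene, with motif cores in capitals and each core placed by its first base, counted from 1 at the annotated start and backwards from -1 at the base before it. They are shown because they differ in kind and place of the cores. That of Ifit3 (chr19:34583279-34583578, plus strand) has 2 ISRE cores on the reverse strand, at -156 and -122. That of Isg15 (chr4:156200769-156201068, minus strand) has 3 ISRE cores that overlap, at -78, -72 and -66, and that of Irgm1 (chr11:48871371-48871670, minus strand) has 2 that overlap, at -30 and -24. Irf1 (chr11:53769764-53770063, plus strand) has no ISRE core and 1 GAS core, at -90, in 1 of its 2 listed promoters. Ifitm3 (chr7:141010695-141010994, minus strand) has ISRE cores at 3 and 20, after the start, and a GAS core at 14 that runs into the second of them.
Ifit3: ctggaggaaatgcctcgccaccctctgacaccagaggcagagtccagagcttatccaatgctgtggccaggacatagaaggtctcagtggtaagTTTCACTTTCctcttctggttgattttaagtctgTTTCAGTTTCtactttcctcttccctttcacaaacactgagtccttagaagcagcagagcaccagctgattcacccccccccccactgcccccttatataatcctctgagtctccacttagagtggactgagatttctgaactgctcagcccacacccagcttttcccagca
Isg15: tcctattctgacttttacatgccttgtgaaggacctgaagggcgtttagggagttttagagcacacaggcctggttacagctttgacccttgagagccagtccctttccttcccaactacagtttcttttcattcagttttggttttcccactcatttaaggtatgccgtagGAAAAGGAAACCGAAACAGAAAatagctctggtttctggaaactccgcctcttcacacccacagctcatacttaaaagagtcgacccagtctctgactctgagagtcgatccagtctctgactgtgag
Irgm1: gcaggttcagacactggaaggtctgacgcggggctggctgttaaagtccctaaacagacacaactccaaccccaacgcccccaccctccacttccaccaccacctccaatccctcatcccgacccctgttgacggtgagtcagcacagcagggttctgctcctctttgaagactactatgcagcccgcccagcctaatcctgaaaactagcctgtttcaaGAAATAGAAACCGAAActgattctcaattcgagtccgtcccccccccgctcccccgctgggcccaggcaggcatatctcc
Irf1: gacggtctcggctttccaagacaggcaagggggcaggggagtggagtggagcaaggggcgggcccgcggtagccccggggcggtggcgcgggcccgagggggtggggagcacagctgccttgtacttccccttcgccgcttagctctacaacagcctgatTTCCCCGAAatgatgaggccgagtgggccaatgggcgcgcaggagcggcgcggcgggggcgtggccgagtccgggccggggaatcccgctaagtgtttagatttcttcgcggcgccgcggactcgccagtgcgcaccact
Ifitm3: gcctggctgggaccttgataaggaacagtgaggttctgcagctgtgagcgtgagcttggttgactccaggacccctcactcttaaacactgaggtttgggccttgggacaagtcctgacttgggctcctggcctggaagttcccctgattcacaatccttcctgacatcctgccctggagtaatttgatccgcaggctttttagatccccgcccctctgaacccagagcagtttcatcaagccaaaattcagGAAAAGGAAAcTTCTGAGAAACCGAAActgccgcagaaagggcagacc

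A level is the sum of a gene's counts in a library's cells, per 1000000 counts (CPM), with counting error as the only error known. Libraries held 2778858 (CD48-negative HSC2) to 15019501 counts (MPP2-containing), and the median cell 23540 to 145496 in the same 2 libraries; 3 counts, the limit that a count of 0 allows, are 0.20 to 1.08 CPM. The label on CD48 could be checked: Cd48 stood at 173 CPM in HSC2/MPP4 and 9.36 CPM in CD48-negative HSC2, at 122 CPM in the MPP2-containing library, 33.9 in HPC1, 81.4 in HSC1 and 1.62 in the double-negative library. Markers of other cells differed between libraries in ways that overlap with several comparisons. Immediate early genes, which respond to cell handling, summed to 3723 and 5627 CPM in HSC2/MPP4 and CD48-negative HSC2 and to 1015 to 2299 CPM in the others. Neutrophil markers summed to 309 (HSC1) to 6584 CPM (CD48-negative HSC2), erythroid markers to 178 (HSC2/MPP4) to 4482 CPM (HPC1), megakaryocyte-platelet markers to 25.5 (HSC2/MPP4) to 3417 CPM (HPC1), and 7 monocyte-macrophage markers to 42.4 (double-negative) to 93.5 CPM (HSC2/MPP4), with Csf1r, which defines these cells, at 0.303 to 15 CPM. Of the plasmacytoid dendritic cell markers other than Bst2 counts were recovered for Tcf4 and Irf8; Irf8 stood at 222 CPM in HSC2/MPP4 and at 5.26 to 22.3 CPM in the other 5 libraries. The part of these cells in the results below was not tested.

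Counts of 22 members can include reads of another gene, since their exons overlap it (7 of them on the same strand, among these Igtp with Irgm2) and the strand setting of the counting is not given in the sources used here. Dtx3l and Parp9 overlap each other on opposite strands. Members with close relatives in the genome (Ifit3, Oas1a, Oasl2, Trim30a, Gbp7 and the Ifitm genes) are uncertain in the same way, since reads that match several copies may have been split or dropped.

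Most members were counted in every library. Of the 47 members 43 (91.5%) were at 10 CPM or more in all 6 libraries, as were 53.5% of all recovered genes, and 9 (19.1%) at 100 CPM or more in all, as were 10.4% of recovered genes; Nlrc5, Ifit3, Rsad2 and Adar were under 10 CPM in at least 1. The highest library of a member exceeded its lowest by a median log2 ratio of 1.0 (10 CPM added to both, as in all log2 ratios here), against 0.77 over all 12182 recovered genes and 0.86 over the 9735 at 10 CPM or more in 1 library. Of the members 18 were highest in CD48-negative HSC2, where 22.4% of the 9735 genes were highest, and 11 in HSC1 (16.6% of genes). The lowest library was HSC2/MPP4 for 19 members (20.9% of genes) and the MPP2-containing library for 11 (14.3% of genes). Without the highest cell of each gene in each library, 20 members were highest in CD48-negative HSC2 and 8 in HSC1, and 16 were lowest in HSC2/MPP4 and 13 in the MPP2-containing library.

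**Figure D2:**
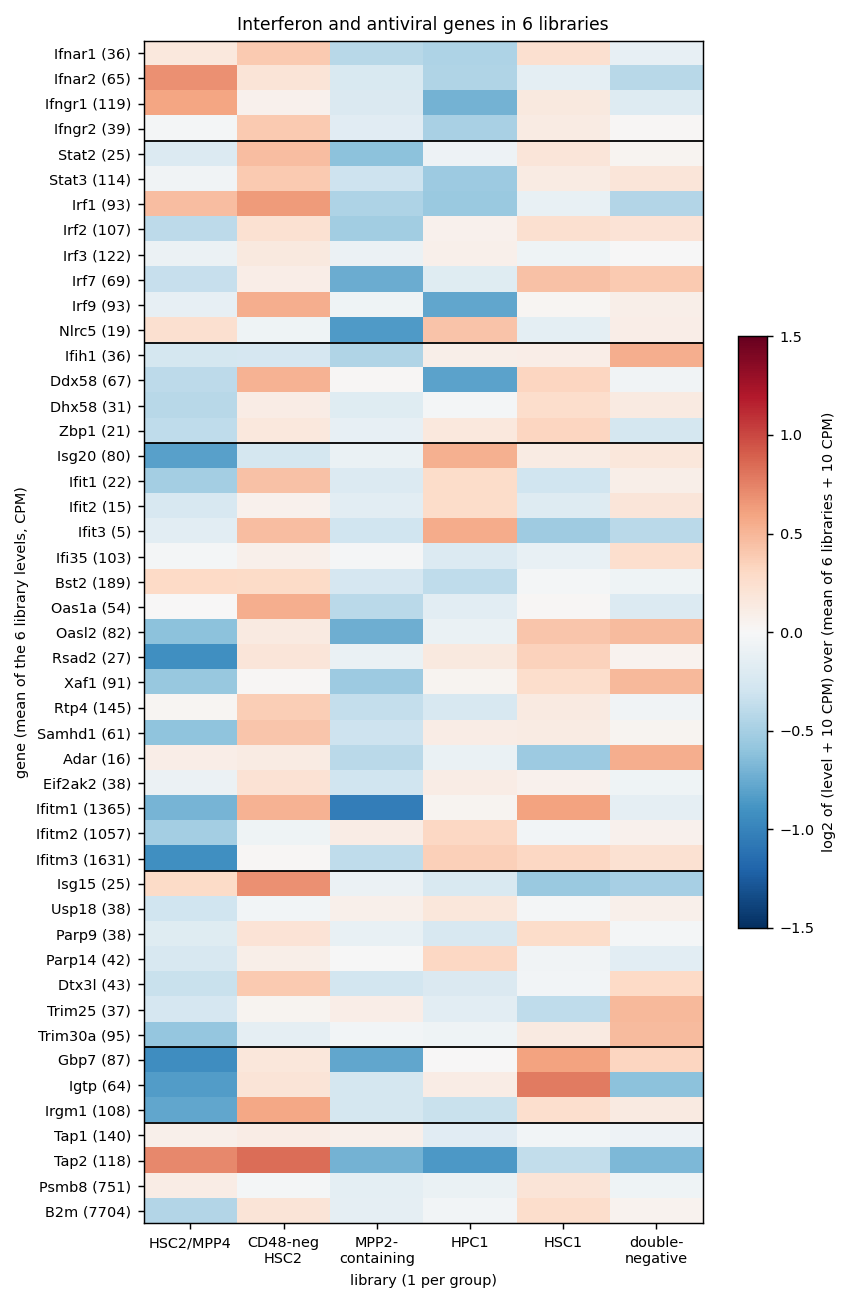
Level of the 47 members in 6 libraries, as the log2 of the level over the mean of the 6 levels (10 CPM added to both; red above, blue below); the mean in CPM follows each symbol, and lines part the roles from receptors at the top to antigen presentation at the bottom. The HSC2/MPP4 column is blue for most effectors and GTPases and red for Ifnar2, Ifngr1, Irf1, Isg15 and Tap2, and CD48-negative HSC2 is the highest library for 18 members.

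The 4 receptor subunits were counted in every library, at 23.4 to 183 CPM, and each had its lowest level in HPC1. Ifnar2, the signalling subunit of the type I receptor, stood at 111 CPM in HSC2/MPP4, 75.9 in CD48-negative HSC2, 54.1 in the MPP2-containing library, 44.97 in HPC1, 57.6 in HSC1 and 46.0 in the double-negative library. Ifngr1, the ligand-binding subunit of the type II receptor, stood at 183 CPM in HSC2/MPP4, 124 in CD48-negative HSC2, 101 in the MPP2-containing library, 68.9 in HPC1, 132 in HSC1 and 102 in the double-negative library. For both, HSC2/MPP4 was the highest library, and its 95% exact Poisson interval (100.4 to 121.5 CPM for Ifnar2, 169.8 to 197 CPM for Ifngr1) did not overlap that of any other library. Ifnar1 and Ifngr2 were highest in CD48-negative HSC2 instead, at 50.4 and 54.7 CPM, and their intervals overlapped those of HSC1 (44.5 and 43.6 CPM).

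Transcription factors differed among themselves. Irf1, which is induced mainly through GAS elements, stood at 133 CPM in HSC2/MPP4, 151 in CD48-negative HSC2, 64.8 in the MPP2-containing library, 60.2 in HPC1, 86.0 in HSC1 and 66.3 in the double-negative library. The 2 HSC2 libraries were the highest for it. Irf7, the factor that amplifies type I interferon production, stood at 52.8 CPM in HSC2/MPP4, 74.9 in CD48-negative HSC2, 37.3 in the MPP2-containing library, 60.04 in HPC1, 97.5 in HSC1 and 94.4 in the double-negative library, so that HSC1 and the double-negative library were highest and the MPP2-containing library lowest. Irf3, which is present before infection and is activated by phosphorylation, varied least of all members, between 115 CPM in HSC2/MPP4 and 137 CPM in CD48-negative HSC2. Irf9, the DNA-binding partner of the STAT proteins in the ISRE-binding complex, was highest in CD48-negative HSC2 (140.3 CPM) and lowest in HPC1 (49.8 CPM). Stat2, another part of that complex, lay between 13.0 CPM (MPP2-containing) and 38.5 CPM (CD48-negative HSC2). Nlrc5, the activator of class I antigen presentation genes, was at 6.26 CPM in the MPP2-containing library and at 16.3 to 29.3 CPM in the other 5.

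The sensors of viral RNA and DNA were counted at 13.8 to 100.8 CPM. Ddx58, which encodes the RNA sensor RIG-I, stood at 48.7 CPM in HSC2/MPP4, 101 in CD48-negative HSC2, 68.2 in the MPP2-containing library, 34.2 in HPC1, 86.1 in HSC1 and 64.2 in the double-negative library. HPC1 was lowest and CD48-negative HSC2 highest. Ifih1, which encodes the long double-stranded RNA sensor MDA5, was highest in the double-negative library (57.5 CPM) and lowest in the MPP2-containing library (23.8 CPM). Dhx58, a regulator of those sensors, and Zbp1, which binds Z-form nucleic acid and can start necroptosis, were highest in HSC1, at 38.8 and 28.5 CPM, and lowest in HSC2/MPP4, at 20.4 and 13.8 CPM.

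Among the effectors the 3 Ifitm genes, which encode membrane proteins that hinder virus entry and lie together on chromosome 7, held 21 to 31.1% of all counts of the members. Ifitm1 stood at 839 CPM in HSC2/MPP4, 1959.8 in CD48-negative HSC2, 658 in the MPP2-containing library, 1407 in HPC1, 2086 in HSC1 and 1243 in the double-negative library, highest in HSC1 and CD48-negative HSC2 and lowest in the MPP2-containing library. Ifitm3 stood at 856 CPM in HSC2/MPP4, 1651 in CD48-negative HSC2, 1249.6 in the MPP2-containing library, 2093 in HPC1, 2021 in HSC1 and 1914 in the double-negative library, with HPC1 and HSC1 highest and HSC2/MPP4 lowest. Ifitm2 varied less, between 737 CPM in HSC2/MPP4 and 1319 CPM in HPC1. The steeply inducible Ifit genes, whose products bind viral RNA, were at the other end. Ifit3 was at 3.57 CPM in HSC2/MPP4, 10.8 in CD48-negative HSC2, 2.33 in the MPP2-containing library, 12.3 in HPC1, 0.462 in HSC1 and 1.42 in the double-negative library. These few counts lay mostly in single cells: 1 cell held 48.6 to 71.4% of the Ifit3 counts of every library, and in HSC1 there were 3 counts in all.

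Rsad2, which encodes viperin, stood at 9.43 CPM in HSC2/MPP4, 31.7 in CD48-negative HSC2, 24.4 in the MPP2-containing library, 30.7 in HPC1, 36.7 in HSC1 and 28.1 in the double-negative library, with HSC2/MPP4 lowest and its interval (6.64 to 13.0 CPM) apart from the other 5. Oasl2, a relative of the oligoadenylate synthetases, stood at 50.2 CPM in HSC2/MPP4, 91.0 in CD48-negative HSC2, 45.5 in the MPP2-containing library, 76.0 in HPC1, 113 in HSC1 and 118 in the double-negative library. The double-negative library and HSC1 were highest for it, and the MPP2-containing and HSC2/MPP4 libraries lowest. Samhd1, which depletes the nucleotides that viruses need, stood at 36.7 CPM in HSC2/MPP4, 85.3 in CD48-negative HSC2, 47.5 in the MPP2-containing library, 66.8 in HPC1, 67.3 in HSC1 and 63.2 in the double-negative library. HSC2/MPP4 was lowest and CD48-negative HSC2 highest for Samhd1. Isg20, an exonuclease, was lowest in HSC2/MPP4 (41.5 CPM) and highest in HPC1 (121 CPM), and Xaf1, a proapoptotic factor, was lowest in HSC2/MPP4 and the MPP2-containing library (58.4 and 59.1 CPM) and highest in the double-negative library (131 CPM). Bst2, which encodes tetherin and holds budding viruses on the cell, was the only effector highest in HSC2/MPP4 (235 CPM), although by less than the counting error over CD48-negative HSC2 (234 CPM), and it was lowest in HPC1 (143 CPM). The remaining effectors (Ifit1, Ifit2, Ifi35, Oas1a, Rtp4, Adar and Eif2ak2) were at 7.86 to 190.4 CPM, and 4 of these 7 were highest in CD48-negative HSC2. For Ifit1 that rested on 1 cell, without which it was at 11.1 CPM in CD48-negative HSC2, and without the highest cell of each library HPC1 was highest (24.8 CPM).

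Isg15, a ubiquitin-like protein that is attached to other proteins and also secreted, stood at 32.6 CPM in HSC2/MPP4, 46.1 in CD48-negative HSC2, 22.8 in the MPP2-containing library, 19.8 in HPC1, 13.7 in HSC1 and 14.7 in the double-negative library. Both HSC2 libraries were above the other 4. Usp18, which removes ISG15 and dampens the type I receptor, varied between 28.8 CPM in HSC2/MPP4 and 43.8 CPM in HPC1, which stood at 34.2 CPM without its highest cell. Trim30a, a tripartite motif protein, was lowest in HSC2/MPP4 (60.4 CPM) and highest in the double-negative library (137 CPM), and Trim25, the ubiquitin ligase that activates RIG-I, was highest there too (55.6 CPM, against 26.0 to 40.5 CPM elsewhere). Parp9, Parp14 and Dtx3l, which join ADP-ribosylation to ubiquitin in this response, lay between 30.2 and 59.4 CPM.

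The interferon-induced GTPases, which act in the defence against microbes held in vacuoles, showed the same lowest library in all 3 cases. Irgm1 stood at 58.4 CPM in HSC2/MPP4, 167 in CD48-negative HSC2, 88.3 in the MPP2-containing library, 83.4 in HPC1, 130.2 in HSC1 and 119 in the double-negative library. Igtp, also named Irgm3, stood at 31.6 CPM in HSC2/MPP4, 75.2 in CD48-negative HSC2, 52.1 in the MPP2-containing library, 70.6 in HPC1, 118 in HSC1 and 38.4 in the double-negative library, and Gbp7, a guanylate-binding protein, at 40.8 CPM in HSC2/MPP4, 98.6 in CD48-negative HSC2, 46.4 in the MPP2-containing library, 87.1 in HPC1, 137 in HSC1 and 112 in the double-negative library. HSC2/MPP4 was lowest for each, CD48-negative HSC2 was highest for Irgm1, and HSC1 was highest for Igtp and Gbp7.

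Antigen presentation was led by B2m, the light chain of class I molecules, which held 48.5 to 53.8% of all counts of the members and was counted in every cell. B2m stood at 5690.0 CPM in HSC2/MPP4, 8789.6 in CD48-negative HSC2, 6997 in the MPP2-containing library, 7505 in HPC1, 9254 in HSC1 and 7989 in the double-negative library. Psmb8, a subunit of the immunoproteasome, and Tap1, which builds the peptide transporter together with Tap2, varied little, at 677 to 861 and 123 to 153 CPM. Tap2 stood at 201 CPM in HSC2/MPP4, 219.5 in CD48-negative HSC2, 68.6 in the MPP2-containing library, 60.7 in HPC1, 88.9 in HSC1 and 70.3 in the double-negative library. After thinning each cell to 10000 counts, Tap2 was counted in 81.5% of HSC2/MPP4 cells and 75.8% of cells of CD48-negative HSC2, against 37.5% of the MPP2-containing library, 37% of HPC1, 51.2% of HSC1 and 50.7% of the double-negative library. The 2 HSC2 libraries were thus apart from the other 4 for Tap2 and not for Tap1 or Psmb8, which lie beside it on chromosome 17. Exons of Tap2 overlap noncoding RNAs on the opposite strand. Those of Psmb8 overlap Gm20496, which Tap2 overlaps too, and those of Tap1 overlap Psmb9, each on the opposite strand. Both HSC2 libraries were labelled total RNA, the other 4 polyA RNA, and that difference cannot be told apart from the cells.

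The comparison of HSC2/MPP4 with CD48-negative HSC2 sets CD48+ HSC2 and multipotent progenitors against HSC2 that lack CD48. In pooled CPM most members were lower in HSC2/MPP4. Of 47 members 42 had a ratio below 0, with a median of -0.44, against -0.04 over all recovered genes. No member was at least 2-fold higher (1.84% of recovered genes were), and 6 were at least 2-fold lower (3.28% of recovered genes). These were Irgm1 (log2 ratio -1.37, 95% exact counting interval -1.58 to -1.16), Ifitm1 (-1.21, -1.28 to -1.15), Rsad2 (-1.10, -1.42 to -0.76), Gbp7 (-1.10, -1.34 to -0.85), Igtp (-1.03, -1.30 to -0.77) and Samhd1 (-1.03, -1.28 to -0.77). The 5 members above 0 were led by Ifngr1 and Ifnar2, at 0.52 and 0.49. With per-cell CPM averaged, which weighs cells alike, the median was -0.35 and 39 of 47 were below 0. Without the deepest 10% of cells of each library the median was -0.22, with 34 of 47 below 0, and it was -0.19 with cells thinned to 10000 counts. It was 0.020, with 25 of 47 above 0, when log2 levels were averaged over cells (0.09 over all genes), and -0.0079 when that was done in thinned cells, so the direction of the list is not settled on the log scale of cells. With log2 levels averaged over all cells Ifitm1 alone was still at least 2-fold lower. Erythroid markers summed to 178 CPM in HSC2/MPP4 against 2700.0 CPM in CD48-negative HSC2, and T and NK cell markers to 490 against 84.2 CPM. Nearly all of the latter sum was Nkg7 (483 against 77.4 CPM). Cd3d was at 4.84 against 5.76 CPM, Klrb1c at 1.53 against 1.08 CPM and Trbc2 at 0.255 against 0 CPM. The part of these markers was not tested.

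CD48-negative HSC2 was next set against the double-negative library, the HSC1 and HPC1 cells that lack both CD201 and CD48. Of the members 31 were above 0, with a median of 0.21 (0.00 over all recovered genes). A total of 3 were at least 2-fold higher, while 4.27% of recovered genes were: Tap2 (1.52, interval 1.37 to 1.66), Isg15 (1.18, 0.93 to 1.43) and Irf1 (1.08, 0.91 to 1.24). None was at least 2-fold lower (2.68% of recovered genes). The median turned to -0.19 when log2 levels were averaged over cells (-0.12 over all genes) and was -0.01 in the deposited scores, so the direction of the list is not settled. Of the 3 genes, Tap2 passed 2-fold under every alternative that has a 2-fold scale, which the deposited scores lack. Irf1 and Isg15 did not pass it under averaged logs or with 50 CPM added. Immediate early genes were 5627 against 1437 CPM in this pair, neutrophil markers 6584 against 785 CPM and erythroid markers 2700.0 against 352 CPM, and library and RNA label differ between them as well; their part was not tested.

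The double-negative library also serves as the reference of the next comparisons, so that their values are not independent. The MPP2-containing library was lower than the double-negative library for 37 of 47 members, with a median of -0.26 (-0.01 over all recovered genes). No member was at least 2-fold higher (1.98% of recovered genes) and 4 were at least 2-fold lower (2.0% of recovered genes). They were Oasl2 (-1.21, interval -1.33 to -1.09), Irf7 (-1.14, -1.27 to -1.01), Gbp7 (-1.11, -1.23 to -0.99) and Xaf1 (-1.03, -1.14 to -0.92). All 8 transcription factors were below 0 in this pair. Under averaged logs the median was -0.063, and none of the 4 passed 2-fold. Neutrophil markers summed to 2695 CPM in the MPP2-containing library against 785 CPM in the double-negative library, and megakaryocyte-platelet markers to 1266 against 686 CPM; their part was not tested.

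HPC1 was set against HSC1, the 2 libraries that carry a spleen label and share their CD48 and CD201 gates. Of the members 33 were below 0, with a median of -0.20 (0.00 over all recovered genes). Ifit3 was past 2-fold higher (1.09, interval 0.94 to 1.16; 1.85% of recovered genes were) and Ddx58 at least 2-fold lower (-1.12, -1.28 to -0.97; 1.96% of recovered genes). All 4 receptors and all 3 GTPases were below 0. The Ifit3 value rested on 1 HPC1 cell, in which the deposited score was capped so that its 86 counts are a lower bound; without the highest cell of each library Ifit3 was at 4.85 CPM in HPC1 and 0.156 CPM in HSC1, with a log2 ratio of 0.55. The Ddx58 ratio was -0.34 when per-cell CPM were averaged over cells. Markers of other cells moved in this pair: in HPC1 against HSC1, erythroid markers summed to 4482 against 679 CPM, megakaryocyte-platelet markers to 3417 against 245 CPM and neutrophil markers to 4373 against 309 CPM, and their part was not tested.

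HSC1 and HPC1 were each set against the double-negative library, which contains both populations without CD201 and CD48. HSC1 was above it for 28 of 47 members, with a median of 0.08, and HPC1 for 18 of 47, with a median of -0.12 (0.00 over all recovered genes in both). The HSC1 median turned to -0.070 when log2 levels were averaged over cells, with 28 of 47 below 0, and to -0.039 in the deposited scores, with 29 below 0. In HSC1, Igtp was at least 2-fold higher (1.40, interval 1.25 to 1.55; 2.12% of recovered genes) and Adar, which edits double-stranded RNA, at least 2-fold lower (-1.09, -1.29 to -0.86; 1.44% of recovered genes). In HPC1 no member passed 2-fold in either direction (1.98% of recovered genes higher and 1.30% lower). Igtp overlaps Irgm2 on the same strand, so its counts may hold both genes. Averaged over cells on the log scale, the Igtp ratio was 0.68 and the Adar ratio -0.35, both under 2-fold, and Adar was at -0.97 with cells thinned and CPM averaged.

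**Figure D3:**
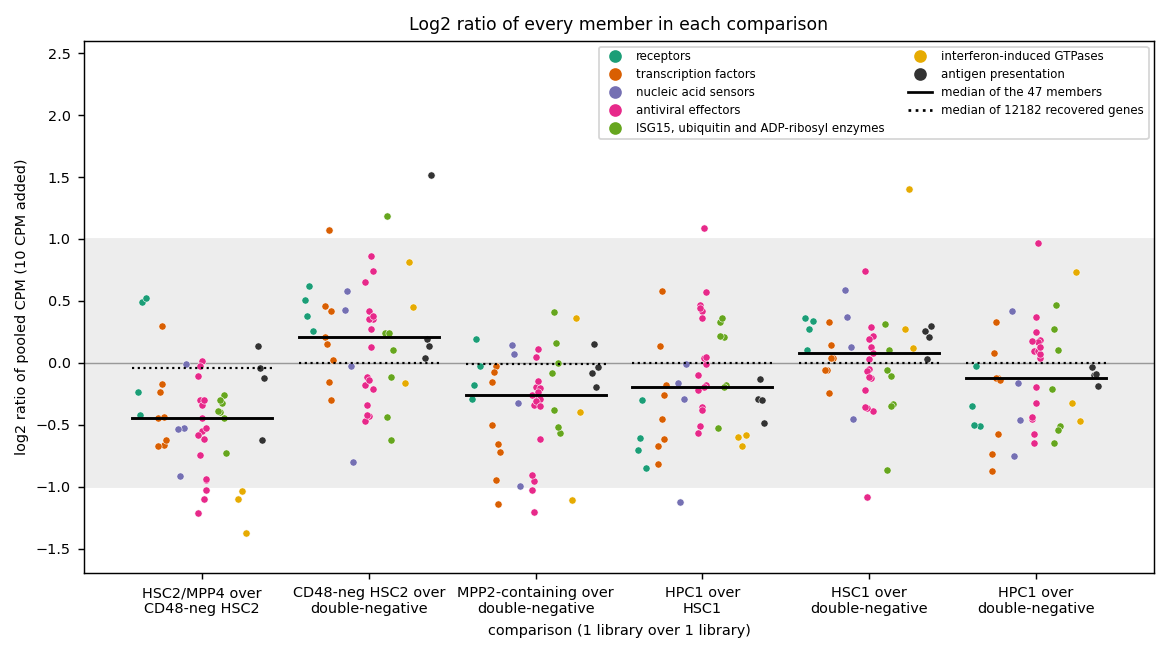
Log2 ratio of pooled CPM (10 CPM added) of each of the 47 members in the 6 comparisons, coloured by role; solid lines are member medians, dotted lines the medians of the 12182 recovered genes, and the grey band is within 2-fold. Medians run from -0.44 (HSC2/MPP4 over CD48-negative HSC2) to 0.21 (CD48-negative HSC2 over double-negative). In the first comparison the 3 GTPases have the lowest median of the roles (-1.10).

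Further genes of the pathway were read from a list of 81 that are not members, of which counts were recovered for 70. Of 9 ligand genes, none of the 7 interferon genes was among the named genes, and the other 2, Il15 and Il18, stood at 41.7 to 92.3 and 27.9 to 63.7 CPM. Alternative settings were run for the members and not for the 70 genes. In HSC2/MPP4 over CD48-negative HSC2, 52 of the 70 genes were below 0 (median -0.22, against -0.04 over all recovered genes). At least 2-fold higher was 1 gene (1.84% of recovered genes were) and 4 were at least 2-fold lower (3.28% of recovered genes). The higher one was Mb21d1, which encodes the DNA sensor cGAS (31.9 against 6.84 CPM, log2 ratio 1.31). The lower ones were Ifi44 (22.7 against 78.1 CPM, -1.43) and the GTPase genes Gbp2 (22.4 against 71.3 CPM, -1.33), Iigp1 (-1.12) and Tgtp1 (-1.09).

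In CD48-negative HSC2 over the double-negative library the median of the 70 genes was 0.19, with 6 genes at least 2-fold higher (4.27% of recovered genes were) and 2 lower (2.68% of recovered genes). The higher ones were Socs3, a feedback inhibitor of STAT signalling (21.2 against 1.21 CPM, 1.48), Gbp4 (22 against 0.910 CPM, 1.55), Gbp6 (1.31), Irf2bp2 (1.17), Oasl1 (1.14) and Shisa5 (1.11). The lower ones were Phf11d (-1.44) and Lgals9, which encodes galectin-9 (186 against 445 CPM, -1.21). The MPP2-containing library over the double-negative library had a median of -0.16, with Socs3 higher (1.06) and Phf11d (-1.5), Ifi44 (-1.32), Parp12 (-1.13) and Irf5 (-1.03) lower. HPC1 over HSC1 had a median of -0.17 and no gene past 2-fold (1.85% of recovered genes were higher and 1.96% lower). HSC1 over the double-negative library had a median of 0.10, with Traf3, an adaptor of the sensing pathways (1.69), and Gbp4 (1.16) higher, and Parp12 (-1.28) and Socs1, another feedback inhibitor (-1.03), lower. Of all recovered genes 2.12% were higher and 1.44% lower there. HPC1 over the double-negative library had a median of -0.06 and 1 gene past 2-fold, Trim21 (1.17), an antibody receptor of the cytosol (1.98% of recovered genes were higher and 1.30% lower). Of the 13 class I presentation genes none was past 2-fold in any of the 6 comparisons, in which 1.30 to 4.27% of recovered genes were past it in 1 direction, a share that comes to less than 1 of 13 genes.

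The module level, the summed CPM of the 47 members, was 11579 CPM (95% exact Poisson interval 11473 to 11686) in HSC2/MPP4 and 17651 CPM (17496 to 17808) in CD48-negative HSC2. The MPP2-containing library had 13003 CPM (12946 to 13061), HPC1 15488 CPM (15416 to 15560.4), HSC1 18321 CPM (18217 to 18425) and the double-negative library 15926 CPM (15847 to 16005). HSC1 and CD48-negative HSC2 were highest and HSC2/MPP4 lowest. B2m and the 3 Ifitm genes set this sum; without them it was 3457 CPM in HSC2/MPP4, 4243 in CD48-negative HSC2, 2950.4 in the MPP2-containing library, 3165 in HPC1, 3935 in HSC1 and 3671 in the double-negative library, and the MPP2-containing library was lowest. The mean deposited score over the members, which weighs each member alike, was -0.0748 SD in HSC2/MPP4, 0.0267 in CD48-negative HSC2, -0.0330 in the MPP2-containing library, 0.0212 in HPC1, 0.0265 in HSC1 and 0.0387 in the double-negative library, with the double-negative library highest and HSC2/MPP4 lowest.

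Single cells spread more than libraries did. In HSC2/MPP4 the module level of a cell ran from 5122 to 33308 CPM with a median of 13008. In CD48-negative HSC2 it ran from 7794 to 50070.3 CPM with a median of 17266, and in the MPP2-containing library from 7722 to 25874 CPM with a median of 13854. It ran from 5516 to 35277 CPM (median 16829) in HPC1, from 8110.1 to 51837 CPM (median 17824) in HSC1, and from 7566 to 32430 CPM (median 16300) in the double-negative library. Every cell held counts of at least 2 members, and the highest cell had 1.87 (MPP2-containing) to 2.91 times (HSC1) the level of the median cell. Thinned to 10000 counts, which left out 8 cells in HSC2/MPP4, 20 in CD48-negative HSC2, 0 in the MPP2-containing library, 1 in HPC1, 4 in HSC1 and 1 in the double-negative library, a median cell held counts of 16 to 18 members; unthinned, it held 20 (CD48-negative HSC2) to 32.5 (MPP2-containing). Over the members, the median share of cells with a count was 30 to 33.8% in the 6 thinned libraries.

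To see whether a few cells carry the response, 16 members known for sharp induction were summed: Isg15, Usp18, the 3 Ifit genes, Rsad2, Oasl2, Oas1a, Irf7, Zbp1, Rtp4, Xaf1, Bst2, Ifih1, Ddx58 and Dhx58. Their sum was 808 CPM in HSC2/MPP4, 1126 in CD48-negative HSC2, 703 in the MPP2-containing library, 823 in HPC1, 1030 in HSC1 and 1008 in the double-negative library. The median cell had 789 CPM in HSC2/MPP4, 846 in CD48-negative HSC2, 502 in the MPP2-containing library, 581 in HPC1, 720.1 in HSC1 and 704 in the double-negative library, so that a level of this size was usual. The highest cell had 7539 CPM in HSC2/MPP4, 8759.6 in CD48-negative HSC2, 3805 in the MPP2-containing library, 6982 in HPC1, 9676 in HSC1 and 4793 in the double-negative library, which is 6.81 (double-negative) to 13.4 times (HSC1) the median cell. Leaving out that 1 cell gave a library sum of 774 CPM in HSC2/MPP4, 1049 in CD48-negative HSC2, 618 in the MPP2-containing library, 747 in HPC1, 883 in HSC1 and 974 in the double-negative library, after which the double-negative library stood above HSC1 and HSC2/MPP4 above HPC1.

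**Figure D4:**
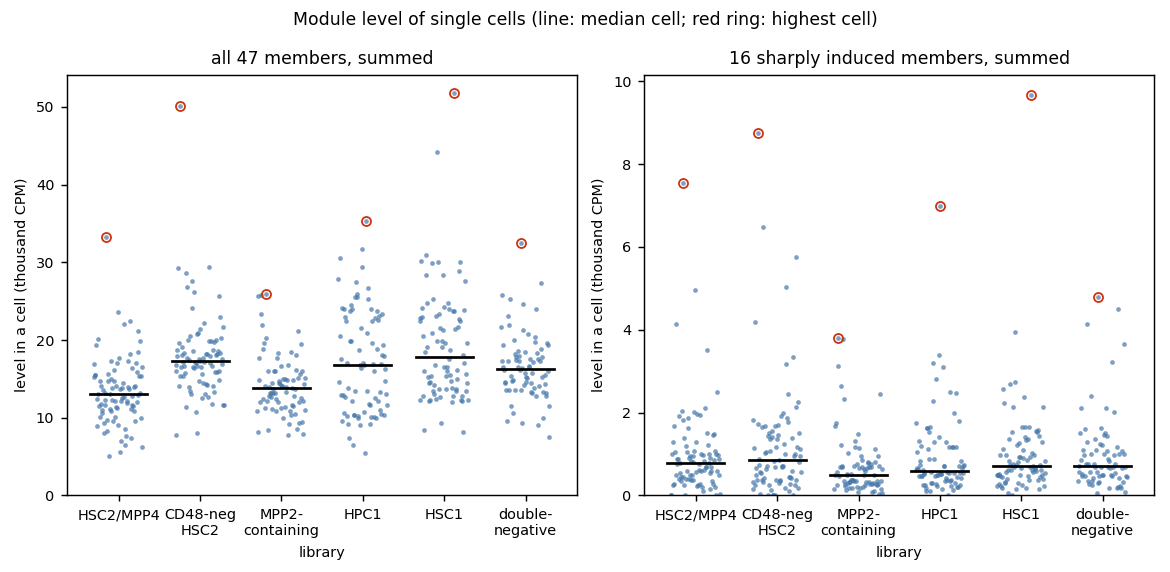
Level of single cells (CPM divided by 1000), summed over all 47 members (left) and over the 16 sharply induced members (right), by library; lines mark the median cell and red rings the highest cell. The summed level of all members stays within 2.91 times the median cell, whereas that of the induced members reaches 13.4 times the median cell in HSC1.

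The 10% of cells with most counts of the 16 genes held 34.4% of these counts in HSC2/MPP4, 48.2% in CD48-negative HSC2, 45.2% in the MPP2-containing library, 40.7% in HPC1, 42.4% in HSC1 and 45.8% in the double-negative library. The deepest 10% of cells held 32.7% of all counts in HSC2/MPP4, 34.6% in CD48-negative HSC2, 26.3% in the MPP2-containing library, 29.7% in HPC1, 27.5% in HSC1 and 28.7% in the double-negative library, so the excess was smallest in HSC2/MPP4. At equal depth the top 10% held 39.4% in HSC2/MPP4, 42.6% in CD48-negative HSC2, 36.1% in the MPP2-containing library, 36.1% in HPC1, 33.3% in HSC1 and 35.8% in the double-negative library. HSC2/MPP4 was then second only to CD48-negative HSC2. The cells were ranked by the same counts whose share is given, so counting noise alone raises these shares. No gene set of like level was ranked in the same way, so whether they exceed that noise was not tested. The counts were more concentrated for the 6 genes Ifit1, Ifit2, Ifit3, Isg15, Rsad2 and Usp18, of which the top 10% of cells held 47.4 (double-negative) to 70.1% (CD48-negative HSC2) and the top cell 8.76 to 33.2% in the same libraries. These 6 genes summed to only 97.6 (HSC2/MPP4) to 173 CPM (CD48-negative HSC2), and fewer counts raise such shares as well. By gene, the highest cell held a median of 14.7 to 22% of the counts of an induced member, against 11.5 to 16.2% over all genes at 10 CPM or more in that library. In thinned cells the median number of the 16 genes counted was 3 or 4 in each library, and 6 (CD48-negative HSC2) to 11 cells (HSC2/MPP4 and HSC1) held 8 or more, up to 13.

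The highest cell of each library did not show the same genes. In HSC2/MPP4 it held 19365 counts and led with Ddx58 and Irf7 (21 counts each) and Bst2 (41), without Ifit2 or Ifit3. That of CD48-negative HSC2 held 27741 counts, with Zbp1 (22 counts), Irf7 (53), Ifit2 (14) and Ifit3 (10) and none of Ifit1. That of the MPP2-containing library held 403190 counts, with Ifit1 (159 counts), Xaf1 (233) and Zbp1 (124), and 15 of the 16 genes were counted.

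In HPC1 the highest cell held 138639 counts with Rsad2 (134 counts), Usp18 (115), Ifit1 (89) and Ifit3 (at least 86), and Bst2 at 1 count. In HSC1 it held 108514 counts with Irf7 (231 counts) and Oasl2 (255), which were 36.5 and 34.9% of all counts of these genes in the library; Ifit1, Ifit2 and Ifit3 were at 0. In the double-negative library it held 87420 counts, led by Xaf1 (131 counts) and Ifih1 (46), with Ifit2, Ifit3, Zbp1 and Dhx58 at 0. Without that HSC1 cell, which was also the highest for both genes there, Irf7 stood at 63.0 CPM and Oasl2 at 74.6 CPM in HSC1.

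**Figure D5:**
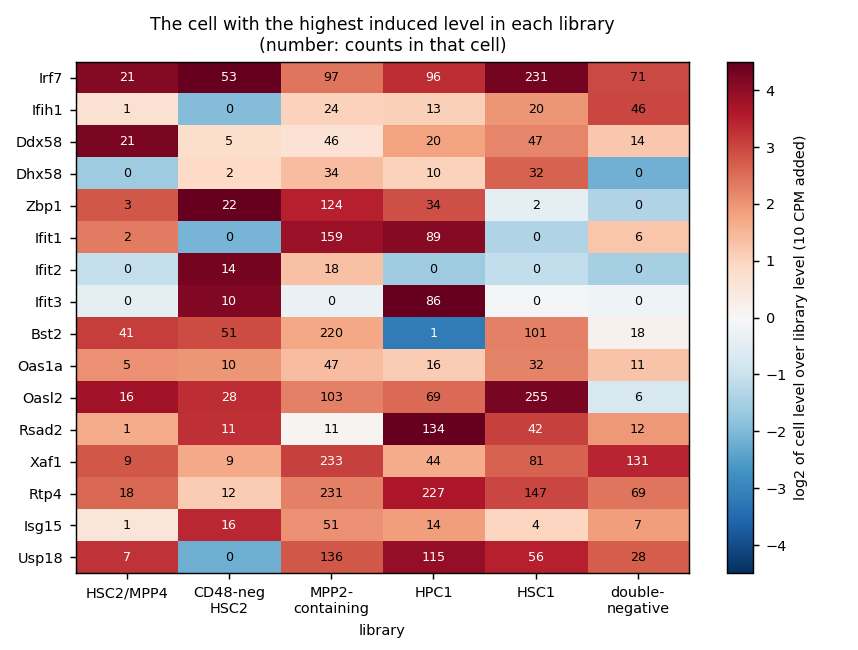
The 16 sharply induced members (rows) in the cell with their highest summed level in each library (columns); colour is the log2 of the level in that cell over the level of its library (10 CPM added), and the number is the count in the cell. Rsad2, Ifit3 and Usp18 lead in HPC1, Irf7 and Oasl2 in HSC1, and Ifit1, Ifit2 and Ifit3 are at 0 in the HSC1 cell.

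These 6 cells were also read for markers of other cell types. Of the 7 monocyte-macrophage markers Csf1r, Adgre1, C1qb, C1qc and Ccr2 were at 0 in all 6 cells, and C1qa and Cd68 had 1 count in 1 cell each. Of the plasmacytoid dendritic cell markers Irf8 was at 0 in all 6 cells and Tcf4 was counted in all 6, at 1 (HSC2/MPP4) to 103 counts (MPP2-containing). Cd34 and Ly6a were counted in all 6 cells, at 1 to 242 and 2 to 269 counts, and Hlf in 5 of them. Several lists of mature cells were counted as well. The MPP2-containing cell had 65 counts of neutrophil, 41 of B cell, 149 of T and NK cell (all Nkg7), 58 of erythroid and 41 of megakaryocyte-platelet markers. The HPC1 cell had 108 counts of neutrophil, 29 of B cell, 156 of erythroid and 92 of megakaryocyte-platelet markers. The HSC1 cell had 133 counts of neutrophil (132 of them S100a8), 48 of erythroid and 59 of megakaryocyte-platelet markers, and in the other 3 cells no such list passed 29 counts. All these marker counts are raw, in cells of 19365 (HSC2/MPP4) to 403190 counts (MPP2-containing), and do not rank the cells by marker level. The shallow HSC2/MPP4 cell had 10 counts of B cell markers. Monocyte-macrophage markers were less scarce in some of the cells with the second-highest summed level of the sharply induced members. Such a cell had 31 counts of them in CD48-negative HSC2 (of 10357 counts), 59 in HPC1 (of 92361) and 15 in HSC1 (of 61915). In the double-negative library it had 1, and in HSC2/MPP4 and the MPP2-containing library 0. The part of these markers was not tested. Doublets were not called, and whether any of these cells was more than 1 cell was not tested.

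Within libraries some members followed each other from cell to cell. In thinned cells Spearman's rho between Ifitm1 and Ifitm3 was 0.42 in HSC2/MPP4 (81 cells), 0.45 in CD48-negative HSC2 (66 cells), 0.44 in the MPP2-containing library (80 cells), 0.44 in HPC1 (81 cells), 0.55 in HSC1 (80 cells) and 0.48 in the double-negative library (75 cells). Between Ifitm3 and B2m it was highest in HSC1 (0.59) and lowest in the double-negative library (0.23). Between Ifitm2 and Ifitm3 it lay between -0.16 and 0.35, between Psmb8 and B2m between -0.11 and 0.33, and between Tap1 and Tap2 between -0.15 and 0.14. These are descriptions over cells that share a library and its depth.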

How the data were processed

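Single cells were lysed, copied by a modified Smart-seq2 method, enriched for 3' ends and sequenced on an Illumina HiSeq, per the labels' protocols. TopHat, HTSeq and mm10 are named by the submitters' processing notes; the sources used here give no version, annotation, strand setting, cell filter, doublet removal or use of molecular identifiers. The values the authors deposited are scores, scaled for each gene to a mean of 0 and an SD of 1 across the 497 cells and capped at 10. Gene names are absent from the tables of both HSC2 libraries, whose lines, less 6 blank ones, were matched to the named genes through that joint scaling. The number of per-sample columns left unused was 0.

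Counts were recovered by undoing the scaling, the regression on 2 cell covariates and a log of counts per 10000, as inferred from the scores and not from any stated method. Of 13278 genes 12182 were recovered, 1095 had too few detecting cells (under 5) and 1 failed. All 2025881 recovered values up to 50 were whole within 0.01. Recovered genes held a median of 99.9% of a cell's total. Tested on simulated data, 12178 of 12181 genes were recovered, and for the comparison of HSC2/MPP4 with CD48-negative HSC2 the 100 genes changed 2-fold had a median log2 ratio of 0.747, the same as drawn. The simulation assumes the scaling model.

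CPM are counts per 1000000, log2 ratios use 10 CPM added, and shares of cells use cells thinned to 10000 counts. Intervals (95%, exact Poisson or Clopper-Pearson) cover counting error only, and amplified reads are not independent molecules. Pooling weighs cells by depth, and the deepest 10% had 26.3 to 34.6% of a library's counts. 1 marker gene of the lists is not reported here. No cell was filtered or called a doublet, and cells are not replicates, so no test was run. Members at least 2-fold higher or lower were named in each comparison, with the most abundant members of each role; of other pathway genes, those past 2-fold at 10 CPM or more in 1 of the 2 libraries. The members, lists and rules were chosen with earlier results of these data known. Alternatives were other pseudocounts, filters, centring, cell weights, left-out cells and the deposited scores. Python 3.11.15, numpy 2.4.6, pandas 2.3.3, scipy 1.17.1 and matplotlib 3.10.9 were used, with GENCODE M21 and RefSeq tables of GRCm38.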

Additional observations from a re-analysis of the deposited data

How the results depend on the processing

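No paired analysis was possible because each group had 1 library, and for the same reason no replicate could be left out. Recomputed list medians were held against a range from the median of the members' lower counting limits to the median of their upper limits. That range is not an interval of the median itself. For HSC2/MPP4 over CD48-negative HSC2 it ran from -0.67 to -0.19, so -0.22 without the deepest 10% of cells, against -0.44 reported, stayed inside. Of 66 recomputed list medians 56 stayed within their range or, for the deposited scores, kept the sign of the reported median. The sign changed in 5: 1 for HSC2/MPP4 over CD48-negative HSC2, 2 for CD48-negative HSC2 over double-negative and 2 for HSC1 over double-negative. Of 187 recomputed values of named members 64 no longer passed 2-fold and none changed sign. The 187 include differences of deposited scores, which were held to their sign alone and could not be among the 64. Causes were not tested. With log2 levels averaged over cells the medians were 0.020 for HSC2/MPP4 over CD48-negative HSC2 and -0.19 for CD48-negative HSC2 over double-negative (both of changed sign), -0.070 for HSC1 over double-negative (changed sign), -0.063 for MPP2-containing over double-negative and -0.0097 for HPC1 over HSC1; members past 2-fold were 1 higher and 1 lower in each of the first pair of comparisons and 0 in the MPP2-containing, HPC1 over HSC1 and HSC1 over double-negative comparisons. In the deposited scores the medians were -0.010 for CD48-negative HSC2 over double-negative and -0.039 for HSC1 over double-negative (both of changed sign), and counts past 2-fold could not be given on that scale. Without the deepest 10% of cells the HSC1 over double-negative median was 0.22, 3 members were 2-fold lower in HSC2/MPP4 over CD48-negative HSC2, 2 higher and 0 lower in HPC1 over HSC1 and 2 higher in HPC1 over double-negative. With 50 CPM added, 1 member was lower in HSC2/MPP4 over CD48-negative HSC2 and 1 higher in CD48-negative HSC2 over double-negative, and 0 remained past 2-fold in the other comparisons. With 1 CPM added, 7 were lower in the MPP2-containing library, 2 lower in HSC1 and 1 higher in HPC1, each over double-negative. With per-cell CPM averaged, 1 was lower in MPP2-containing over double-negative and 0 in HPC1 over HSC1. Without each gene's highest cell, 0 were higher in HPC1 over HSC1. The share of all recovered genes past 2-fold was not computed under these settings or for the thinned cells below. Such counts of members therefore show how the calls move with the setting and are no result about the list.

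Alternatives chosen after seeing the data thinned cells to 10000 counts. With mean CPM, members past 2-fold were 5 higher and 1 lower in CD48-negative HSC2 over double-negative, 0 lower in HPC1 over HSC1, 2 higher and 0 lower in HSC1 over double-negative and 1 higher in HPC1 over double-negative. With mean log2 levels the medians were -0.0079 for HSC2/MPP4 over CD48-negative HSC2, 0.013 for CD48-negative HSC2 over double-negative and -0.12 for MPP2-containing over double-negative, with 1 member lower in the first, 1 higher in the second, 1 lower in the third and 0 in HPC1 over HSC1 and HSC1 over double-negative.

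The module level in CPM, given for HSC2/MPP4, CD48-negative HSC2, MPP2-containing, HPC1, HSC1 and double-negative in turn, was 13444, 17996, 14297, 17320, 19274 and 16671 as a mean over cells, 11362, 17172, 12619, 15009, 17584 and 15501 without each gene's highest cell, 11472, 17325, 12922, 15332, 17751 and 15779 without the highest cell, 5889, 8862, 6006, 7983, 9067 and 7936 without B2m, and 3457, 4243, 2950.4, 3165, 3935 and 3671 without B2m and the Ifitm genes. Without the deepest 10% of cells it was 12975 in HSC2/MPP4, 13728 in MPP2-containing, 17230 in HPC1, 19907 in HSC1 and 16687 in double-negative. HSC2/MPP4 was lowest in each of these but the last set without B2m and the Ifitm genes, where MPP2-containing was. In the same library order, the top 10% of cells held 39.4, 42.6, 36.1, 36.1, 33.3 and 35.8% of the induced members' counts after thinning, 54.8, 70.1, 58.1, 65.2, 50.9 and 47.4% for the 6 genes of the Ifit, Isg15, Rsad2 and Usp18 set, and 23.8, 28.3, 40.5, 34.8, 34.97 and 38.5% with cells ranked by CPM. The median share of cells with a count of a member was 43.8% in HSC2/MPP4, 75.0% in MPP2-containing, 67.1% in HPC1, 61.9% in HSC1 and 69.7% in double-negative before thinning. Depth limits the 2 HSC2 libraries most: 3 counts are 0.765 CPM in HSC2/MPP4 and 1.08 CPM in CD48-negative HSC2.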
